A study of Mus musculus with 8 samples.

Results

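The endoplasmic reticulum folding and unfolded protein response genes described here are 37 mouse genes, taken by name with earlier results of these data known, of 16547 genes with values in all libraries. They comprise 3 stress sensors with the factor Xbp1, 8 chaperones, the secreted stress proteins Manf and Creld2, 5 disulfide isomerases, 2 prolyl isomerases, 3 members of the lectin cycle, 9 degradation genes, 3 translocon genes and Wfs1. All 37 were in both deposited tables and passed the filter on low counts. RNA came from mouse hearts after ischemia-reperfusion, in 4 groups of 2 libraries each. The iFTn-MR4, iFTn-M4 and iFTn-R4 groups received protein nanocages, known here by code name and described in the series title as nanozymes against superoxide inside cells. The PBS group received buffer and had the same ischemia-reperfusion, so no uninjured heart is among the groups. Treatment was 2 doses, every other day, with 2.5 mg/kg protein for each nanocage, and tissue was taken after 3 days. Strain, age and sex are not given in the labels, nor whether the 2 libraries of a group came from separate animals, and a p-value therefore covers the spread of these samples, which may be technical.

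Proteins that enter the secretory pathway fold in the endoplasmic reticulum with the help of chaperones, disulfide isomerases and a lectin cycle, and those that fail are sent back to the cytosol for degradation. When unfolded protein builds up, the sensors Ern1 (IRE1), Eif2ak3 (PERK) and Atf6 start the unfolded protein response. Ern1 splices Xbp1 mRNA, Atf6 is cut to a transcription factor, and Eif2ak3 slows translation. The Atf6 and Xbp1 proteins then raise chaperone and degradation genes through short promoter elements. In the injured heart this response is known in muscle cells, fibroblasts and immune cells.

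The promoter element ERSE (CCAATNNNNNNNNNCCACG, with 9 bases of spacer) is shown because it marks the classic targets of Atf6 and Xbp1. It was searched on both strands of RefSeq promoter windows on GRCm38.p6, from 250 bases before to 50 bases after each annotated start. A window was found for 31 members, and Sec61a1, Atf6, Hyou1, Derl1, Hspa13 and Manf had no entry. ERSE stood in the windows of 9 of the 31 members (29.0%), against 37 of 27025 genes with a window (0.137%). Capitals mark the letters of the element that are fixed, and matches on the opposite strand read CGTGG first. Each site is given along the gene's own strand.
Calr: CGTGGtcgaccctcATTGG
Canx: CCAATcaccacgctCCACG
Creld2: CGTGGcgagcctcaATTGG
Derl3: CGTGGgacttccccATTGG
Dnajc3: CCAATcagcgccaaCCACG
Hsp90b1, distal: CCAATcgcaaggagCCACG
Hsp90b1, proximal: CGTGGtgaggcacgATTGG
Hspa5: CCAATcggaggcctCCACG
Pdia6: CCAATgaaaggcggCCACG
Syvn1: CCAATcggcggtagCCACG
The sites lay between -212 and -26 bases from the start.

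A second element, ERSE-II (ATTGG, 1 base of any kind, then CCACG), stood in the windows of 2 members, Dnajb11 and Herpud1, against 12 of all 27025 genes (0.0444%). The core TGACGTGG, known from Xbp1 and Atf6 binding, was in 1 member window, Txndc5, against 0.714% of genes. None of these matches overlapped another. A match describes letters and not binding, and a window without one says only that these letters are not in it. The 250 bases before the start follow for the chaperone Hspa5 (chr2:34771840-34772089, plus strand), for Hsp90b1 with its 2 matches (chr10:86705445-86705694, minus strand), for Creld2 (chr15:88819396-88819645, plus strand), for Pdia6 (chr12:17266339-17266588, plus strand) and for Herpud1 (chr8:94386179-94386428, plus strand). The first 4 fell with iFTn-MR4 and iFTn-M4 below, and Herpud1 carries ERSE-II in capitals and did not pass the test.
Hspa5: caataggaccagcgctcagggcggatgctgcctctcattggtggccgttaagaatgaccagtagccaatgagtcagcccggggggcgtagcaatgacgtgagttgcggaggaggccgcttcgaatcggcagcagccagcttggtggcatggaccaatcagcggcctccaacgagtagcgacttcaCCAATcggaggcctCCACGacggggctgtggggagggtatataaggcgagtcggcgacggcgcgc
Hsp90b1: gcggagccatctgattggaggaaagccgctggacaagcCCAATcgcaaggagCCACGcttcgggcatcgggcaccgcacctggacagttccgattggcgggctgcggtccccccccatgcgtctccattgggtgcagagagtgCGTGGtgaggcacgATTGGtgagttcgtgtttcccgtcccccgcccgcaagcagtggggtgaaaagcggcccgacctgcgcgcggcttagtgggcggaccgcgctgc
Creld2: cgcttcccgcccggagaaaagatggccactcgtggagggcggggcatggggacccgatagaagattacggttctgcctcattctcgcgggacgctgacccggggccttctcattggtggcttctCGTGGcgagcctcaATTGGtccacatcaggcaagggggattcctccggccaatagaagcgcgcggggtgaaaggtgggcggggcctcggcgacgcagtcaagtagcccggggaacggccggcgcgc
Pdia6: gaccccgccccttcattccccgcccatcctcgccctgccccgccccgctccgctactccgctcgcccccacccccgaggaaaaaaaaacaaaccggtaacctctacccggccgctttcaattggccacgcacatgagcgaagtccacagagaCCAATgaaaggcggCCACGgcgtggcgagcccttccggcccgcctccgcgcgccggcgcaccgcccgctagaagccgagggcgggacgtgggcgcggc
Herpud1: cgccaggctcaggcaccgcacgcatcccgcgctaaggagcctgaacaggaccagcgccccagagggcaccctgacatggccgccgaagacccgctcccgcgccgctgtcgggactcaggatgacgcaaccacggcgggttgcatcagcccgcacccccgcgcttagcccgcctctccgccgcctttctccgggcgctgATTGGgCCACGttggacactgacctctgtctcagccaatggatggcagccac

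Levels are CPM, counts scaled to a common library total, on TMM-scaled library sizes. Log2 fold changes carry their SE after the ± sign and come from edgeR, fitted by quasi-likelihood to the 8 libraries together. A gene rose or fell only where its Benjamini-Hochberg adjusted p among 13953 tested genes was under 0.05. Libraries held 13618128 to 15729311 counts. The 6 cardiomyocyte markers (among them Myh6, Tnnt2 and Ryr2) summed to between 24420 and 47883 CPM. Replicates of iFTn-R4 stood furthest apart, with a chi-square of 15.8 per degree of freedom between them, against 4.84 for iFTn-MR4, 6.27 for iFTn-M4 and 7.06 for PBS. Of the 37 members, 28 were higher in the first iFTn-R4 library than in the second, as were 6 in iFTn-MR4, 20 in iFTn-M4 and 16 in PBS. The nanocages share a deposited table and PBS has another, so that table and treatment cannot be told apart in comparisons with PBS. All 3 comparisons with PBS use the same PBS libraries.

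Against PBS, most folding genes were lower in every nanocage group. With iFTn-MR4, 28 of 37 members fell and 1 rose, where 26.3% of all tested genes fell and 24.6% rose (50.9% in all). With iFTn-M4, 29 fell and 0 rose, against 21.4% and 19.8% of all genes (41.2% in all). With iFTn-R4, 19 fell and 0 rose, against 15.4% and 13.9% of all genes (29.4% in all). The median member log2 fold change was -0.64 with iFTn-MR4, -0.48 with iFTn-M4 and -0.29 with iFTn-R4, whereas the median of all tested genes was 0.00 in each. Summed over the 37 members, the level was 5419.9 and 5690.3 CPM in the iFTn-MR4 libraries, 5699 and 5763 in iFTn-M4, 7457 and 7094 in iFTn-R4, and 8751 and 9009.5 in PBS. In 19 members the group means ran PBS, iFTn-R4, iFTn-M4, iFTn-MR4 from high to low, and in another 7 the last pair was swapped. PBS had the highest mean in 28 members and the lowest in 5.

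**Figure D1:**
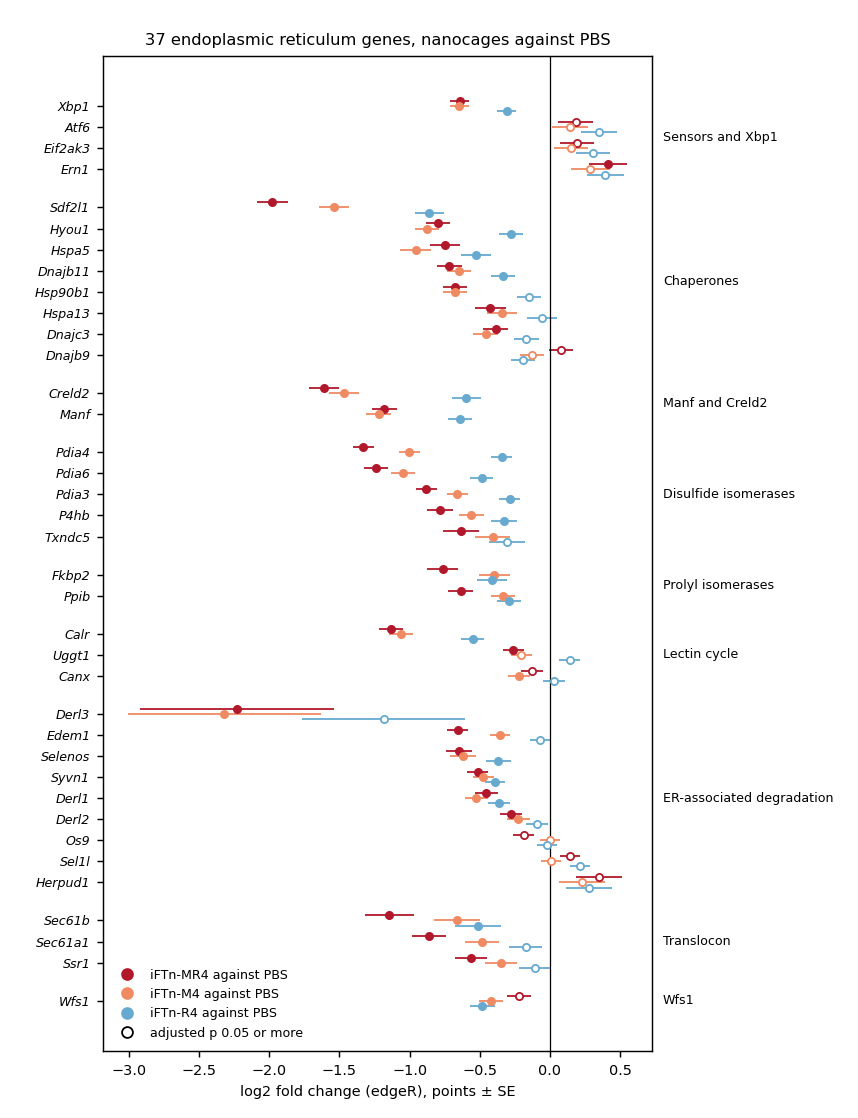
Log2 fold changes of the 37 members in iFTn-MR4, iFTn-M4 and iFTn-R4 against PBS, by role, with bars for SE; filled points have an adjusted p under 0.05 and open points do not. Filled points lie left of 0 for 28 members with iFTn-MR4, and the filled Ern1 point lies right of it.

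With iFTn-MR4 all libraries were below both PBS libraries for 31 members and above them for 6, where 39.9% and 39.3% of all tested genes were so. For iFTn-M4 the counts were 31 below and 4 above (37.3% and 37.3% of all genes), and for iFTn-R4 25 below and 5 above (32.8% and 31.8%). The calls differed in how they held when 1 library was left out or another setting used, such as scaling by library size alone, DESeq2, the compared groups fitted alone, limma on TPM, the replicate number as a block or an offset for transcript length. With iFTn-MR4, 23 of 29 calls held in every alternative tried, with iFTn-M4 16 of 29, and with iFTn-R4 2 of 19, those of Sdf2l1 and Calr. Fewer members, and fewer of all tested genes, were called with iFTn-M4 without the second iFTn-M4 library. The same was so with iFTn-R4 without either PBS library. Member medians there were -0.44 with iFTn-M4, and with iFTn-R4 -0.30 without the first PBS library and -0.28 without the second. Under the length offset, the falls with iFTn-R4 were those of Hspa5, Hyou1, Sdf2l1, Pdia6, Calr, Syvn1, Derl1 and Wfs1, with Dnajc3 and Edem1 added. On the log2(TPM + 1) scale the median of all genes itself moved by 0.11 with iFTn-MR4, 0.14 with iFTn-M4 and 0.20 with iFTn-R4, and the member medians were -0.51, -0.30 and -0.05 on it. On that scale 4 members fell with iFTn-R4 (Calr, Creld2, Manf and Sdf2l1) and 8 rose (Atf6, Canx, Derl2, Eif2ak3, Ern1, Herpud1, Sel1l and Uggt1). Of the 13953 tested genes 660 fell and 4503 rose on it. Among all called genes 87.2% rose, against 47.5% in edgeR.

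Markers of other cells moved between the same groups. The 5 plasma cell markers, a cell type rich in endoplasmic reticulum, summed to between 22.2 and 24.7 CPM in iFTn-MR4, 28.9 and 33.8 in iFTn-M4, 36.9 and 60.8 in iFTn-R4, and 54.3 and 63.2 in PBS, with Tnfrsf17 at 0 in a library. Of the 4 that were tested, 1 fell with iFTn-MR4, 1 fell and 1 rose with iFTn-M4, and 0 passed with iFTn-R4. The 5 neutrophil markers summed to between 37.3 and 42.8 CPM in iFTn-MR4, 35.01 and 65.8 in iFTn-M4, 98.8 and 134.6 in iFTn-R4, and 127 and 145 in PBS, and 4, 4 and 1 of them fell in the 3 comparisons. The 7 fibroblast markers went the other way, with 8419 to 9857 CPM in iFTn-MR4, 10427 to 12633 in iFTn-M4, 8147 to 10960.3 in iFTn-R4, and 6339 to 6556 in PBS, and 6, 5 and 5 of them rose. The 5 smooth muscle and pericyte markers were also higher in every nanocage library, at 835 to 1029 CPM in iFTn-MR4, 885 to 910.2 in iFTn-M4, 624 to 714 in iFTn-R4, and 435 to 472 in PBS, with 3 risen and 1 fallen, then 4 and 2 risen. The 6 endothelial markers were at 1633 to 1731 CPM in iFTn-MR4, 1505 to 1531 in iFTn-M4, 1693 to 1749 in iFTn-R4, and 1173 to 1333 in PBS, and 4, 3 and 5 of them rose. The 7 macrophage and monocyte markers were at 1557 to 1599.5 CPM in iFTn-MR4, 1830 to 2057 in iFTn-M4, 1274 to 1306 in iFTn-R4, and 1249 to 2004 in PBS. Of these, 3 fell and 1 rose with iFTn-MR4, 2 fell and 1 rose with iFTn-M4, and 3 fell and 0 rose with iFTn-R4. The 4 B cell markers were at 3.86 to 4.90 CPM in iFTn-MR4, 6.01 to 7.03 in iFTn-M4, 4.11 to 5.25 in iFTn-R4, and 7.20 to 7.34 in PBS. Of these, 1 fell with iFTn-MR4 and 0 passed with the others. The 6 T and NK cell markers were at 5.35 to 5.44 CPM in iFTn-MR4, 6.08 to 6.82 in iFTn-M4, 8.23 to 14.01 in iFTn-R4, and 4.61 to 5.75 in PBS. Cd3e and Cd3d were at 0 in a library. Of the 4 tested, 1 fell with iFTn-MR4, 0 passed with iFTn-M4 and 1 rose with iFTn-R4. Cardiomyocyte markers were at 44869 to 47883 CPM in iFTn-MR4, 40270.4 to 42763 in iFTn-M4, 24420.3 to 25834 in iFTn-R4, and 30424 to 30519 in PBS, and 4 rose with iFTn-MR4, 2 with iFTn-M4 and 1 with iFTn-R4, where 4 fell. Their part in the results was not tested. In whole tissue, fewer cells of a type and less RNA per cell cannot be told apart.

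None of the 3 sensors fell with any nanocage in edgeR. Ern1, the kinase and ribonuclease that splices Xbp1 mRNA, was at 16.6 and 16.7 CPM in iFTn-MR4, 15.9 and 14.6 in iFTn-M4, 17.3 and 15.5 in iFTn-R4, and 14.0 and 10.97 in PBS. Every nanocage library lay above both PBS libraries. It rose with iFTn-MR4 by 0.41 ± 0.14 on the log2 scale (edgeR adjusted p = 0.0296), and the values with iFTn-M4, 0.29 ± 0.14, and iFTn-R4, 0.40 ± 0.14, did not pass (edgeR adjusted p = 0.12 and 0.0522). With iFTn-R4 it passed with library size alone (edgeR adjusted p = 0.0399), with the replicate block (0.0330), on both TPM scales and without the first PBS library, and with iFTn-M4 in the last 3 of these settings. The iFTn-MR4 call was lost without either iFTn-MR4 library or the second PBS library (edgeR adjusted p 0.101 to 0.198), with library size alone (0.0529) and in DESeq2 (0.0868).

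Eif2ak3, the kinase that slows translation, was at 24.04 and 29.2 CPM in iFTn-MR4, 26.3 and 25.4 in iFTn-M4, 31.3 and 26.3 in iFTn-R4, and 23.9 and 22.7 in PBS. Its log2 fold changes of 0.19 ± 0.12, 0.15 ± 0.12 and 0.31 ± 0.12 with iFTn-MR4, iFTn-M4 and iFTn-R4 did not pass (edgeR adjusted p = 0.216, 0.353 and 0.0818), though the last did on both TPM scales and without the second iFTn-R4 library. Atf6, the membrane-bound factor, was at 129.7 and 136 CPM in iFTn-MR4, 127 and 132 in iFTn-M4, 126 and 172 in iFTn-R4, and 114 and 120.5 in PBS. All its nanocage libraries were higher than PBS, but the edgeR adjusted p was 0.249, 0.391 and 0.0631 for the 3 nanocages in the same order. With iFTn-R4 it passed with library size alone, in DESeq2 (adjusted p = 0.0445), with the replicate block, on both TPM scales and without the first iFTn-R4 library (0.55, edgeR adjusted p = 0.00142). With iFTn-MR4 it passed with the 2 groups alone and without either iFTn-R4 library (edgeR adjusted p 0.0411 to 0.0475). Its value turned under the length offset to -0.15 with iFTn-MR4 and -0.19 with iFTn-M4, and was 0.04 with iFTn-R4.

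Xbp1, the factor downstream of Ern1, was at 101 and 103 CPM in iFTn-MR4, 102 and 102 in iFTn-M4, 126 and 132 in iFTn-R4, and 160.0 and 159 in PBS. The iFTn-MR4 and iFTn-M4 libraries lay together at the low end, iFTn-R4 above them and PBS highest, without overlap between these steps. It fell by 0.64 ± 0.07 on the log2 scale with iFTn-MR4 and by 0.65 ± 0.07 with iFTn-M4 (edgeR adjusted p = 7.63e-05 and 0.000141), calls that held in every alternative. With iFTn-R4 it fell by 0.31 ± 0.07 (edgeR adjusted p = 0.00959), which was lost without either PBS library, within the 2 groups alone, with the length offset and on both TPM scales. Gene counts do not separate spliced from unspliced Xbp1 mRNA.

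**Figure D2:**
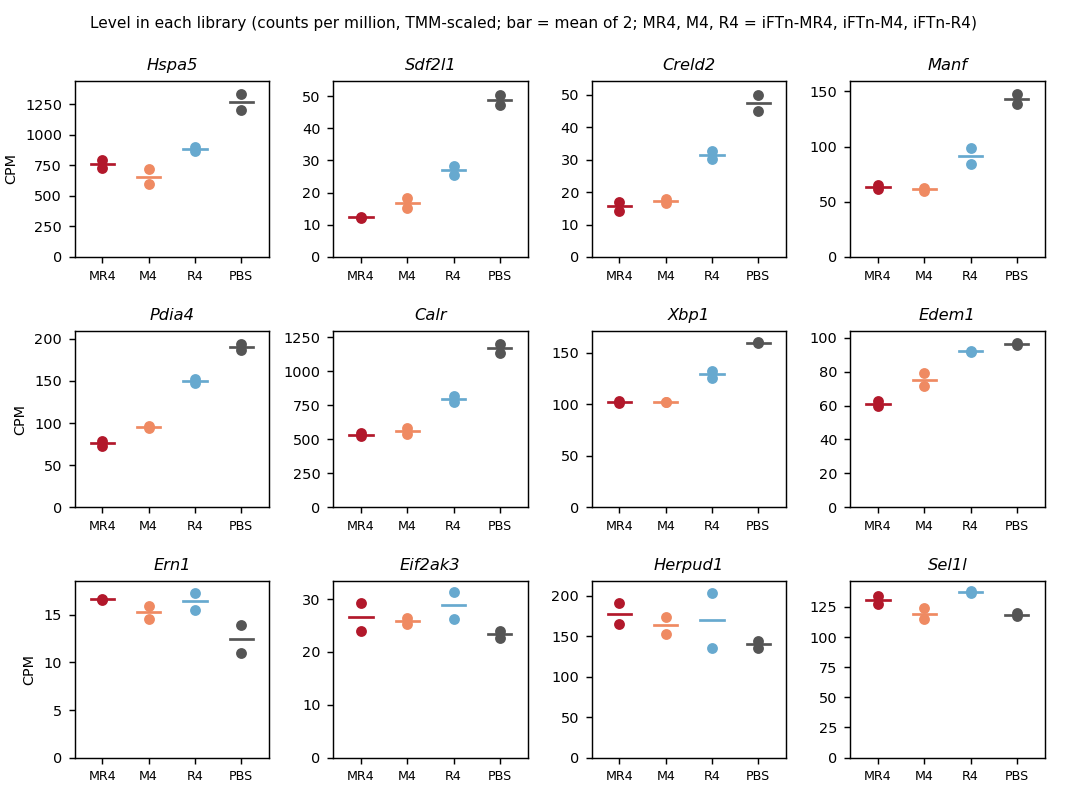
CPM in each library for 12 members, with iFTn-MR4, iFTn-M4 and iFTn-R4 left of PBS, points for libraries and bars for the mean of 2. Target genes from Hspa5 to Edem1 lie below PBS with iFTn-MR4, and Ern1, Eif2ak3, Herpud1 and Sel1l do not.

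Counts by role are to be read against the 26.3%, 21.4% and 15.4% of all tested genes that fell with iFTn-MR4, iFTn-M4 and iFTn-R4. Of 8 chaperones, 7 fell with iFTn-MR4, 7 with iFTn-M4 and 4 with iFTn-R4. Hspa5 (BiP), the main Hsp70 of the compartment and the regulator of all 3 sensors, was at 726 and 790.3 CPM in iFTn-MR4, 593 and 716 in iFTn-M4, 866 and 901 in iFTn-R4, and 1206 and 1337 in PBS. No nanocage library reached a PBS library. It fell by 0.75 ± 0.11, 0.96 ± 0.11 and 0.52 ± 0.11 on the log2 scale with iFTn-MR4, iFTn-M4 and iFTn-R4 (edgeR adjusted p = 0.000426, 0.000197 and 0.00707). Unlike most members, it had its lowest mean in iFTn-M4. The iFTn-R4 call was lost without the second PBS library and on the TPM scales.

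Sdf2l1, a partner of the chaperone Dnajb11, had the lowest log2 fold change with iFTn-MR4 after Derl3, which has few counts. It was at 12.2 and 12.5 CPM in iFTn-MR4, 15.3 and 18.3 in iFTn-M4, 25.5 and 28.3 in iFTn-R4, and 47.2 and 50.3 in PBS. The 4 groups formed 4 separate steps. Its level was 3.94-fold lower with iFTn-MR4, 2.90-fold lower with iFTn-M4 and 1.81-fold lower with iFTn-R4 (edgeR adjusted p = 3.81e-06, 1.92e-05 and 0.000814). All 3 calls held in every alternative.

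Hyou1, a large Hsp70 relative that exchanges nucleotide on Hspa5, was at 90.4 and 92.2 CPM in iFTn-MR4, 81.9 and 90.6 in iFTn-M4, 138 and 124 in iFTn-R4, and 153 and 164 in PBS. It fell by 0.80 ± 0.09 with iFTn-MR4 and 0.88 ± 0.09 with iFTn-M4 on the log2 scale (edgeR adjusted p = 8.4e-05 and 9.4e-05). Its value of -0.28 ± 0.08 with iFTn-R4 was near the threshold (edgeR adjusted p = 0.036) and was lost without either iFTn-MR4 library, either PBS library or the second iFTn-R4 library, in DESeq2, with library size alone, with the 2 groups alone and on the TPM scales.

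Hsp90b1 (Grp94), the Hsp90 of the compartment, was at 568 and 632 CPM in iFTn-MR4, 607 and 595 in iFTn-M4, 894 and 838 in iFTn-R4, and 955 and 964 in PBS. It fell by 0.68 ± 0.09 with iFTn-MR4 and 0.67 ± 0.09 with iFTn-M4 (edgeR adjusted p = 0.000195 and 0.000334), and its value of -0.15 ± 0.08 with iFTn-R4 did not pass (edgeR adjusted p = 0.216). On the TPM scales that value was 0.11. The iFTn-R4 libraries stood well above those of the other nanocages and just under PBS. Dnajb11, a co-chaperone of Hspa5, fell by 0.72 ± 0.09, 0.65 ± 0.09 and 0.33 ± 0.08 in the same 3 comparisons, the iFTn-R4 call being lost without the second iFTn-R4 or second PBS library, with the 2 groups alone, on both TPM scales and with the length offset, where its value was -0.16 (edgeR adjusted p = 0.223). The co-chaperone Dnajc3 fell by 0.38 ± 0.09 and 0.46 ± 0.09 with iFTn-MR4 and iFTn-M4, and Hspa13, an Hsp70 relative, by 0.43 ± 0.11 and 0.34 ± 0.11. Neither passed on the TPM scales. Hspa13 was also lost with iFTn-MR4 without the first iFTn-MR4 library, and with iFTn-M4 without the second iFTn-M4 library or either PBS library and in DESeq2.

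Dnajb9 (ERdj4), a co-chaperone that holds Ern1 inactive, was the exception. It was at 52.2 and 51.4 CPM in iFTn-MR4, 44.4 and 45.5 in iFTn-M4, 39.9 and 45.9 in iFTn-R4, and 50.3 and 47.8 in PBS. The iFTn-MR4 libraries were slightly above PBS and the other nanocages below it, and no difference from PBS passed (edgeR adjusted p = 0.467, 0.258 and 0.113). With the length offset its log2 fold change with iFTn-MR4 was 0.33 and passed (edgeR adjusted p = 0.012), and without the second iFTn-R4 library that with iFTn-R4 was -0.31 and passed (0.0294).

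Both secreted stress proteins fell with all 3 nanocages. Manf, a small protein that protects stressed cells, was at 61.3 and 65.0 CPM in iFTn-MR4, 59.8 and 62.9 in iFTn-M4, 98.99 and 84.6 in iFTn-R4, and 138 and 148 in PBS. Its level was 2.27-fold, 2.33-fold and 1.56-fold lower with iFTn-MR4, iFTn-M4 and iFTn-R4 (edgeR adjusted p = 1.43e-05, 2.47e-05 and 0.00135). Creld2, an isomerase-like stress protein, was at 14.3 and 16.9 CPM in iFTn-MR4, 17.7 and 16.5 in iFTn-M4, 32.6 and 30.3 in iFTn-R4, and 45.1 and 50.03 in PBS. The iFTn-MR4 and iFTn-M4 libraries overlapped, and iFTn-R4 stood between them and PBS. Creld2 was 3.05-fold, 2.77-fold and 1.51-fold lower (edgeR adjusted p = 7.94e-06, 2.38e-05 and 0.00318). With the length offset both iFTn-R4 calls missed the threshold (edgeR adjusted p = 0.054 for Manf and 0.0524 for Creld2).

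All 5 disulfide isomerases fell with iFTn-MR4 and with iFTn-M4, and 4 of 5 with iFTn-R4. Of all tested genes 26.3%, 21.4% and 15.4% did so. Pdia4, which has extra thioredoxin domains, was at 72.2 and 79.3 CPM in iFTn-MR4, 96.5 and 93.7 in iFTn-M4, 153 and 147 in iFTn-R4, and 193 and 187 in PBS. Again the 4 groups did not overlap. It fell by 1.33 ± 0.08, 1.001 ± 0.08 and 0.34 ± 0.07 on the log2 scale (edgeR adjusted p = 4.04e-06, 2.63e-05 and 0.00858). Pdia6, which works with Hspa5 and also damps Ern1, was at 176 and 181 CPM in iFTn-MR4, 207 and 201 in iFTn-M4, 319 and 283 in iFTn-R4, and 411 and 433 in PBS. It fell by 1.24 ± 0.08, 1.048 ± 0.08 and 0.49 ± 0.08 (edgeR adjusted p = 7.86e-06, 3.24e-05 and 0.00314). Pdia4 with iFTn-R4 was lost without the first PBS library, with the length offset and on the TPM scales, and Pdia6 on the TPM scales.

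Pdia3, the isomerase of the lectin cycle, was at 311 and 327 CPM in iFTn-MR4, 378 and 365 in iFTn-M4, 487 and 477 in iFTn-R4, and 593 and 582 in PBS, and fell by 0.88 ± 0.08, 0.66 ± 0.07 and 0.29 ± 0.07. P4hb, the founding member and a subunit of collagen prolyl hydroxylase, fell by 0.78 ± 0.09, 0.56 ± 0.09 and 0.33 ± 0.09. Txndc5 fell by 0.63 ± 0.13 with iFTn-MR4 and by 0.41 ± 0.13 with iFTn-M4, the second of which was lost without either iFTn-MR4 library, the second iFTn-M4 library or either PBS library, with the length offset and on the TPM scales. The iFTn-R4 calls of Pdia3 and P4hb were lost without either PBS library, with the 2 groups alone, with the length offset and on the TPM scales, and that of P4hb also with library size alone and without either iFTn-MR4 library or the second iFTn-R4 library.

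The prolyl isomerases Ppib and Fkbp2, which turn proline bonds in folding chains such as collagen, fell with all nanocages in edgeR. Ppib was at 121 and 126 CPM in iFTn-MR4, 156 and 149 in iFTn-M4, 168 and 146 in iFTn-R4, and 185 and 199.5 in PBS. The iFTn-M4 and iFTn-R4 libraries overlapped, below PBS and above iFTn-MR4. It fell by 0.64 ± 0.09, 0.34 ± 0.09 and 0.29 ± 0.09 on the log2 scale (edgeR adjusted p = 0.000301, 0.0121 and 0.0307). Both genes have short transcripts, and with the length offset only the iFTn-MR4 calls were left (edgeR adjusted p = 0.0213 for Ppib and 0.0158 for Fkbp2). Fkbp2, whose expected counts were not whole in any of the 8 libraries and are uncertain, fell by 0.76 ± 0.11, 0.40 ± 0.11 and 0.41 ± 0.11. The second PBS library was needed for both genes in both comparisons. Ppib with iFTn-M4 also failed without the second iFTn-M4 library, and with iFTn-R4 without either iFTn-MR4 library, the second iFTn-R4 or the first PBS library. Fkbp2 also failed with iFTn-M4 without either iFTn-M4 library, with iFTn-R4 without the second iFTn-R4 library, and in DESeq2 in both. On the TPM scales Ppib failed with iFTn-M4 and both genes with iFTn-R4, as they did with these 2 groups alone, and Ppib with iFTn-R4 also failed with library size alone.

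The lectin cycle holds glycoproteins until they fold. Calr (calreticulin), its soluble lectin and a calcium store of the compartment, was at 521 and 544 CPM in iFTn-MR4, 539 and 580.4 in iFTn-M4, 818 and 776 in iFTn-R4, and 1136 and 1201 in PBS. It was 2.19-fold, 2.09-fold and 1.47-fold lower (edgeR adjusted p = 1.25e-05, 3.23e-05 and 0.00198), and all 3 calls held in every alternative. Canx (calnexin), the membrane-bound lectin, was at 425 and 466 CPM in iFTn-MR4, 412 and 422 in iFTn-M4, 504 and 491 in iFTn-R4, and 478 and 495 in PBS. Its value of -0.13 ± 0.08 with iFTn-MR4 did not pass (edgeR adjusted p = 0.206), but did with the length offset (-0.22, edgeR adjusted p = 0.0434). It fell by 0.22 ± 0.08 with iFTn-M4 (edgeR adjusted p = 0.0485), which was lost without any of the iFTn-MR4, iFTn-M4 or PBS libraries, with library size alone, RLE factors or no filter, and on the TPM scales. The difference between the 2 genes was not tested.

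Uggt1, the folding checkpoint of the cycle, was at 95.2 and 106 CPM in iFTn-MR4, 107 and 103 in iFTn-M4, 135.3 and 131 in iFTn-R4, and 119.8 and 122 in PBS. Its iFTn-R4 libraries were above PBS and the other nanocages below. It fell by 0.26 ± 0.08 with iFTn-MR4 (edgeR adjusted p = 0.0176), a call lost without the first iFTn-MR4 library or either PBS library and on the TPM scales. Uggt1 has the longest transcript of the members, 8714 bases, and with the length offset its log2 fold change was -0.66 with iFTn-MR4.

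Of 9 degradation genes, 6 fell with iFTn-MR4, 6 with iFTn-M4 and 3 with iFTn-R4, where 26.3%, 21.4% and 15.4% of all tested genes fell. Edem1, which trims mannose from proteins marked for removal, was at 59.6 and 62.6 CPM in iFTn-MR4, 79.2 and 71.3 in iFTn-M4, 92.3 and 91.6 in iFTn-R4, and 97.1 and 95.5 in PBS. It fell by 0.66 ± 0.08 with iFTn-MR4 and 0.36 ± 0.07 with iFTn-M4 (edgeR adjusted p = 0.00012 and 0.00464), the second lost without the second iFTn-M4 library and on the TPM scales. Selenos, a selenoprotein of the export complex, was at 29.1 and 28.0 CPM in iFTn-MR4, 30.1 and 27.9 in iFTn-M4, 36.3 and 32.9 in iFTn-R4, and 42.5 and 46.8 in PBS. It fell by 0.65 ± 0.09, 0.62 ± 0.09 and 0.37 ± 0.09 (edgeR adjusted p = 0.000411, 0.000795 and 0.0156), the last lost without the second PBS library, with the 2 groups alone, on both TPM scales and with the length offset, where its value was -0.08 (edgeR adjusted p = 0.596). Its first 2 calls held in every alternative.

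The membrane ubiquitin ligase Syvn1 (Hrd1) fell by 0.51 ± 0.08, 0.48 ± 0.07 and 0.39 ± 0.07 with iFTn-MR4, iFTn-M4 and iFTn-R4, whereas its partner Sel1l had 128 and 134 CPM in iFTn-MR4, 115 and 124 in iFTn-M4, 138 and 136 in iFTn-R4, and 119.7 and 117 in PBS. The iFTn-R4 call of Syvn1 was lost on the TPM scales. Sel1l did not pass with iFTn-MR4 (0.14 ± 0.07, edgeR adjusted p = 0.123) or iFTn-R4 (0.21 ± 0.07, 0.052), where it passed on the TPM scales and, with iFTn-R4, with library size alone, the replicate block or either iFTn-M4 library left out. It fell with iFTn-M4 under the length offset (-0.26, edgeR adjusted p = 0.0224). The lectin Os9, which brings substrates to the pair, did not pass with iFTn-MR4 either (-0.19 ± 0.07, edgeR adjusted p = 0.0611), but did with library size alone, with the length offset and without either iFTn-R4 library (0.0279 to 0.0471). Among the channel-forming derlins, Derl1 fell by 0.45 ± 0.08, 0.53 ± 0.08 and 0.36 ± 0.08, the last lost without the first PBS library and on the TPM scales. Derl2 fell by 0.28 ± 0.08 and 0.22 ± 0.08 with iFTn-MR4 and iFTn-M4. The first was lost without either iFTn-MR4 library or the second PBS library, the second without any iFTn-MR4, iFTn-M4 or PBS library, and both in DESeq2 and on the TPM scales, the second also with no filter. Derl3 held 3 and 6 counts in iFTn-MR4, 4 and 5 in iFTn-M4, 19 and 3 in iFTn-R4, and 30 and 20 in PBS. At this depth its values of -2.23 ± 0.69 and -2.32 ± 0.69 with iFTn-MR4 and iFTn-M4 (edgeR adjusted p = 0.0224 and 0.0227) passed, and each call was lost without the first PBS library or either library of the nanocage compared, that with iFTn-M4 also on log2(TPM + 0.1).

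Herpud1, a stress-induced organiser of the degradation complex, was chosen for display after its values were seen, since it went against its group. It was at 191 and 165 CPM in iFTn-MR4, 153 and 175 in iFTn-M4, 136 and 204 in iFTn-R4, and 135.2 and 145 in PBS. The iFTn-MR4 and iFTn-M4 libraries were all above PBS, and of the iFTn-R4 libraries 1 lay within the PBS range and 1 above it. Values of 0.35 ± 0.16, 0.23 ± 0.16 and 0.28 ± 0.16 did not pass (edgeR adjusted p = 0.103, 0.294 and 0.225), and without the second iFTn-R4 library the last was -0.06. With the length offset the iFTn-MR4 value of 0.59 passed (edgeR adjusted p = 0.0168), as did its value on the TPM scales, with the 2 groups alone and without either iFTn-R4 library. The iFTn-R4 value passed on the TPM scales and without the first iFTn-R4 library.

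All 3 translocon genes, which carry new chains into the compartment, fell with iFTn-MR4 and iFTn-M4, where 26.3% and 21.4% of all tested genes fell. The channel subunit Sec61a1 was at 114 and 113 CPM in iFTn-MR4, 159 and 135.4 in iFTn-M4, 206 and 159 in iFTn-R4, and 204 and 208 in PBS. The 2 iFTn-R4 libraries lay far apart, 1 at the PBS level and 1 at that of iFTn-M4. Sec61a1 fell by 0.86 ± 0.12 with iFTn-MR4 and 0.49 ± 0.12 with iFTn-M4 (edgeR adjusted p = 0.000361 and 0.0102), the second lost without the second iFTn-M4 library and on the TPM scales, and without the first iFTn-R4 library it also fell with iFTn-R4 (-0.38, edgeR adjusted p = 0.0207). The small subunit Sec61b was at 17.4 and 18.8 CPM in iFTn-MR4, 29.3 and 21.4 in iFTn-M4, 32.5 and 23.6 in iFTn-R4, and 40.8 and 39.3 in PBS. It fell by 1.15 ± 0.17, 0.66 ± 0.17 and 0.51 ± 0.16 (edgeR adjusted p = 0.000532, 0.0111 and 0.0418). Ssr1, a subunit of the associated TRAP complex, fell by 0.56 ± 0.11 and 0.35 ± 0.11 with iFTn-MR4 and iFTn-M4. Sec61b with iFTn-M4 failed without the second iFTn-M4 or first PBS library and with the length offset. With iFTn-R4 it failed without either iFTn-MR4, the second iFTn-R4 or either PBS library, with library size alone, with the 2 groups alone, on the TPM scales and with the length offset, where its value was -0.20. Ssr1 with iFTn-M4 failed without any iFTn-MR4, iFTn-M4 or PBS library and on the TPM scales.

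Wfs1 (wolframin), a membrane protein of calcium balance, had another order, with its lowest mean in iFTn-R4. It was at 89.1 and 97.8 CPM in iFTn-MR4, 76.1 and 86.3 in iFTn-M4, 76.4 and 79.4 in iFTn-R4, and 104 and 113 in PBS. The libraries of iFTn-M4 and iFTn-R4 overlapped, and those of iFTn-MR4 lay between them and PBS. Wfs1 fell by 0.42 ± 0.09 with iFTn-M4 and 0.48 ± 0.09 with iFTn-R4 (edgeR adjusted p = 0.00427 and 0.0042), and its value of -0.22 ± 0.09 with iFTn-MR4 did not pass (edgeR adjusted p = 0.0596). The iFTn-MR4 value passed with library size alone, with the 2 groups alone, with the replicate block and without either iFTn-R4 library (0.0243 to 0.0445). Both calls missed the threshold on the TPM scales.

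Fold changes against PBS ran with transcript length over all genes (Spearman 0.35 with iFTn-MR4, 0.39 with iFTn-M4 and 0.50 with iFTn-R4), and less between nanocages (0.07, 0.04 and 0.01). Over the 37 members, of 241 (Sec61b) to 8714 bases (Uggt1), the same correlation was 0.60, 0.56 and 0.74. An offset for length brought the members to 0.25, 0.14 and 0.06. With it, 30 members fell and 3 rose with iFTn-MR4 (20.7% and 24.4% of all genes, 45.2% in all), 27 and 0 with iFTn-M4 (16.0% and 16.8%, 32.7% in all), and 10 and 0 with iFTn-R4 (7.49% and 6.44%). Sdf2l1 kept a log2 fold change of -1.64, -1.25 and -0.56 in the 3 comparisons, and Hspa5 of -0.57, -0.82 and -0.43. All 6 of these passed.

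**Figure D3:**
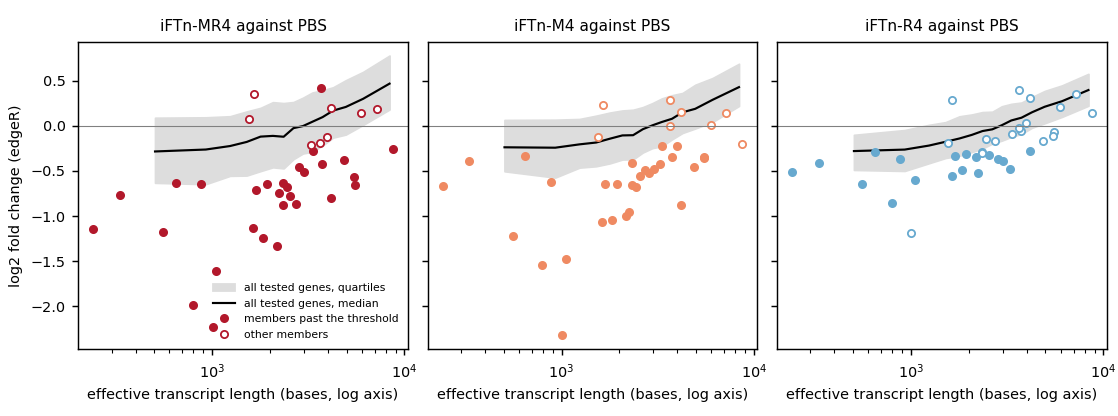
Log2 fold change against effective transcript length (log axis) for iFTn-MR4, iFTn-M4 and iFTn-R4 against PBS, with the median and quartiles of all tested genes in length bins and the 37 members as points. The median of all genes is higher in the longer bins, and the members run from Sec61b at 241 bases to Uggt1 at 8714.

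The nanocages were compared with each other within 1 table. Between iFTn-MR4 and iFTn-R4, 20 members fell and 1 rose, where 14.6% of all genes fell and 12.6% rose (27.2% in all), and the member median was -0.35. All iFTn-MR4 libraries were below both iFTn-R4 libraries for 29 members and above them for 2, against 32.6% and 31.5% of all genes. Pdia4 fell by 0.99 ± 0.08 (edgeR adjusted p = 0.000122), Sdf2l1 by 1.12 ± 0.11 (0.000383), Creld2 by 1.01 ± 0.11 (0.00045) and Pdia6 by 0.75 ± 0.08 (0.00045). Edem1 fell by 0.59 ± 0.08 (edgeR adjusted p = 0.000896). The rise of Dnajb9 by 0.27 ± 0.09 (edgeR adjusted p = 0.0407) was lost on leaving out any library but the second of iFTn-R4. It was also lost with library size alone, in DESeq2, with the 2 groups alone and on both TPM scales. Of the 21 calls 12 held in every alternative. Fewer members, and fewer of all tested genes, were called without either iFTn-MR4 library. The member median was -0.33 without the first and -0.44 without the second. With the length offset 19 fell and 2 rose (12.6% and 15.8% of all genes).

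Set against iFTn-M4, 12 members rose and 0 fell with iFTn-R4, where 3.43% of all genes rose and 2.5% fell (5.93% in all). They were Xbp1, Hspa5, Hsp90b1, Hyou1, Sdf2l1, Manf, Creld2, Pdia3, Pdia4, Pdia6, Calr and Uggt1. Both iFTn-R4 libraries were above both of iFTn-M4 for 24 members and below for 0, against 25.0% and 25.4% of all genes. Creld2 was higher by 0.88 ± 0.11, Sdf2l1 by 0.68 ± 0.11, Pdia4 by 0.66 ± 0.08 and Hyou1 by 0.60 ± 0.09 (edgeR adjusted p = 0.00411, 0.00966, 0.00316 and 0.00632). The calls of Pdia4 and Hyou1 held in every alternative, while Creld2 was lost without the second iFTn-M4 library and Sdf2l1 without the first and with the 2 groups alone. Under the length offset it was 12 risen and 0 fallen (3.18% and 2.93% of all genes, 6.11% in all). Fewer members, and fewer of all tested genes, were called without either iFTn-M4 library. The member median was 0.32 without the first and 0.22 without the second, against 0.26 with all libraries. Hspa5 (edgeR adjusted p = 0.0468) failed when any library was left out, with the 2 groups alone and with the length offset.

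Between iFTn-MR4 and iFTn-M4, 0 of 37 members passed in edgeR, where 0.344% of all genes fell and 0.0215% rose. With the length offset 0 passed too (0.251% and 0.043% of all genes). At an unadjusted p under 0.05 there were 13, but the share of all genes at that cut was not taken, so this count has nothing to be read against. DESeq2 called 0 members, where 271 of all genes fell and 81 rose. Member log2 fold changes lay between -0.48 (Sec61b) and 0.21 (Hspa5), with a median of -0.05 and a median SE of 0.09. Both iFTn-MR4 libraries were lower for 14 members and higher for 6, against 27.7% and 26.6% of all genes. Sdf2l1 was at -0.44 ± 0.12 and Pdia4 at -0.33 ± 0.08 (edgeR adjusted p = 0.124 and 0.0927). When the 2 groups were fitted alone, 3 members fell, Pdia4, Ppib and Sec61a1, where 487 of the 13953 tested genes fell and 258 rose. Log2 fold changes of these members were -0.33, -0.30 and -0.38 without the first iFTn-R4 library. Without the second they were -0.32, -0.30 and -0.37. A p that misses the threshold does not show that these 2 nanocages act alike.

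**Figure D4:**
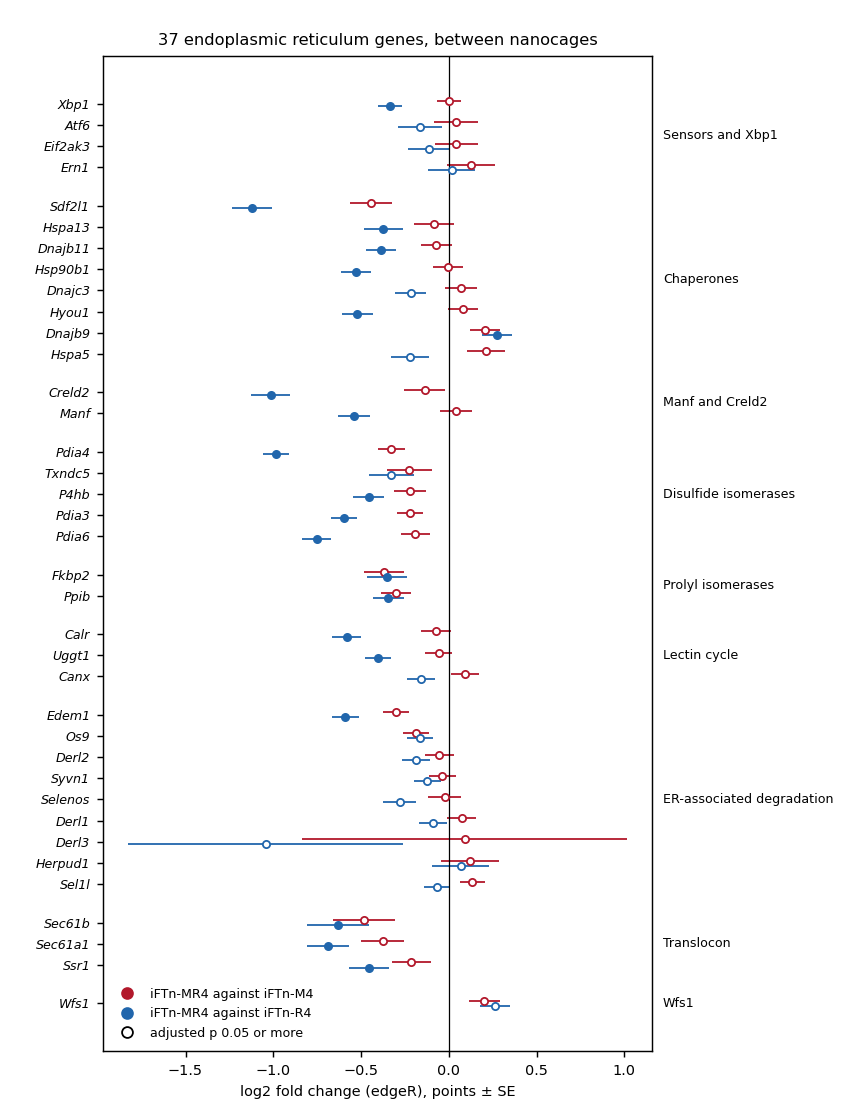
Log2 fold changes of the 37 members for iFTn-MR4 against iFTn-M4 and against iFTn-R4, by role, with bars for SE and filled points at an adjusted p under 0.05. No point of the comparison with iFTn-M4 is filled, and 21 of that with iFTn-R4 are.

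Members with an ERSE match were set beside those without. With iFTn-MR4, 8 of 9 with a match fell (median -0.75), all but Canx, and 15 of 22 without fell (median -0.63). With iFTn-M4 it was 9 of 9 (median -0.96) and 15 of 22 (median -0.38), and with iFTn-R4 5 of 9 (median -0.49) and 11 of 22 (median -0.29). Of all tested genes 26.3%, 21.4% and 15.4% fell in these 3 comparisons. The difference between the 2 sets was not tested. Of 10 other tested genes with ERSE in the window, 4 fell, 3 rose and 3 did not pass with iFTn-MR4. In that comparison 26.3% of all tested genes fell and 24.6% rose.

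**Figure D5:**
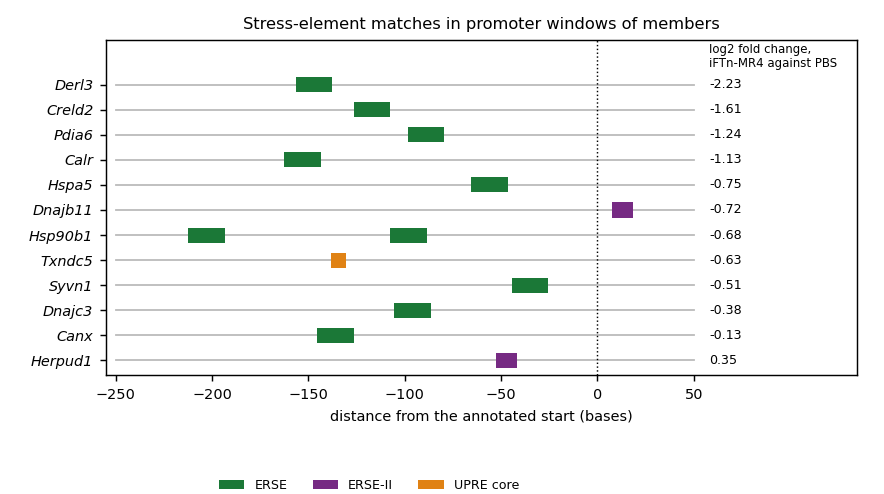
Positions of ERSE, ERSE-II and core matches in the promoter windows of 12 members, in bases from the annotated start, sorted by log2 fold change of iFTn-MR4 against PBS. ERSE matches lie before the start, in genes from Derl3 at -2.23 to Canx at -0.13.

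On a per-length scale, the deposited TPM, Calr was the most abundant member in PBS hearts, with 475 and 499.9 TPM in iFTn-MR4 and 969.8 and 971 in PBS. Hspa5 followed, with 484 and 531 TPM in iFTn-MR4 and 751 and 787 in PBS, and then Hsp90b1, with 345 and 387 in iFTn-MR4 and 542 and 517 in PBS. In iFTn-MR4 the levels of Calr and Hspa5 overlapped. The sensors were far lower, Ern1 at 6.73 and 6.82 TPM in iFTn-MR4 and 5.29 and 3.92 in PBS, and Eif2ak3 at 8.72 and 10.4 in iFTn-MR4 and 8.08 and 7.06 in PBS.

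Other genes of the pathway came from 6 lists, to be read against the 26.3%, 21.4% and 15.4% of all tested genes that fell with iFTn-MR4, iFTn-M4 and iFTn-R4 and the 24.6%, 19.8% and 13.9% that rose. Of 31 translocation and glycosylation genes 25 fell and 0 rose with iFTn-MR4, 23 and 0 with iFTn-M4, and 16 and 0 with iFTn-R4, with medians of -0.53, -0.41 and -0.29 (80.6%, 74.2% and 51.6% fallen). Under the length offset 17, 15 and 4 fell (54.8%, 48.4% and 12.9%, where 20.7%, 16.0% and 7.49% of all genes did). Spcs3, a signal peptidase subunit, fell by 1.09 ± 0.07, 0.92 ± 0.07 and 0.37 ± 0.07, and the oligosaccharyl transferase subunit Rpn1 by 0.78 ± 0.09, 0.65 ± 0.09 and 0.32 ± 0.08. Both iFTn-R4 falls were lost on the TPM scales, and that of Rpn1 also with library size alone, with the 2 groups alone and without the second iFTn-R4 library or either PBS library. Of 29 other folding genes 18 fell and 1 rose with iFTn-MR4, 12 and 1 with iFTn-M4, and 6 and 0 with iFTn-R4 (62.1%, 41.4% and 20.7% fallen, the last near the share of all genes). The length offset left 14, 6 and 2 fallen (48.3%, 20.7% and 6.9%). The collagen chaperone Serpinh1 was at 583 and 554 CPM in iFTn-MR4, 761 and 662 in iFTn-M4, 1021 and 859 in iFTn-R4, and 1244 and 1293 in PBS. It fell by 1.16 ± 0.11, 0.83 ± 0.11 and 0.43 ± 0.11 on the log2 scale. Fibroblast markers were higher in the nanocage groups than in PBS, and any link between them and this fall was not tested. The iFTn-R4 fall of Serpinh1 was lost with the length offset (-0.30, edgeR adjusted p = 0.0846), with the 2 groups alone, on the TPM scales and without either PBS library. Ero1l, the oxidase that recharges disulfide isomerases, fell by 1.33 ± 0.13, 1.23 ± 0.13 and 0.69 ± 0.13, the last lost on the TPM scales. Of 21 transport genes 14 fell and 1 rose with iFTn-MR4, 10 and 0 with iFTn-M4, and 9 and 1 with iFTn-R4 (66.7%, 47.6% and 42.9% fallen). With the length offset 11, 10 and 2 transport genes fell (52.4%, 47.6% and 9.52%, the last near the 7.49% of all genes). Among them Kdelr2, the receptor that returns escaped chaperones, fell by 1.08 ± 0.13, 0.78 ± 0.13 and 0.51 ± 0.13. Its iFTn-R4 fall was lost with the length offset (-0.32, edgeR adjusted p = 0.134), with the 2 groups alone, on the TPM scales and without either PBS library. Of 20 other degradation genes 10 fell and 1 rose with iFTn-MR4, 8 and 1 with iFTn-M4, and 6 and 0 with iFTn-R4 (50%, 40% and 30% fallen). With the length offset 8, 5 and 1 fell (40%, 25% and 5%, the last below the 7.49% of all genes).

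In the branch of Eif2ak3, 9 of 10 genes fell with iFTn-MR4, 6 with iFTn-M4 and 3 with iFTn-R4, and 0 rose with any, where 26.3%, 21.4% and 15.4% of all genes fell. Under the length offset 5, 4 and 2 fell (50%, 40% and 20%, where 20.7%, 16.0% and 7.49% of all genes did). Atf4, the factor made when translation slows, was at 91.1 and 99.5 CPM in iFTn-MR4, 99.5 and 107 in iFTn-M4, 115 and 111 in iFTn-R4, and 161 and 156 in PBS, and fell by 0.73 ± 0.08, 0.62 ± 0.08 and 0.49 ± 0.08. Its target Asns, asparagine synthetase, fell by 1.72 ± 0.16 and 1.16 ± 0.15 with iFTn-MR4 and iFTn-M4. Ddit3 (CHOP), the factor of stress-induced cell death, was at 22.8 and 20.3 CPM in iFTn-MR4, 20.3 and 22.6 in iFTn-M4, 26.1 and 30.6 in iFTn-R4, and 26.6 and 28.0 in PBS. It fell by 0.34 ± 0.11 and 0.35 ± 0.11 with iFTn-MR4 and iFTn-M4 (edgeR adjusted p = 0.0309 and 0.0334), calls lost without either library of the nanocage compared, without either PBS library, in DESeq2 and with the length offset, and was at 0.05 with iFTn-R4. Of 6 other stress factors 3 fell and 1 rose with iFTn-MR4, 3 and 1 with iFTn-M4, and 2 and 1 with iFTn-R4 (50%, 50% and 33.3% fallen). The risen were 16.7% in each, where 24.6%, 19.8% and 13.9% of all genes rose. With the length offset 4, 3 and 0 of the 6 fell and 0 rose. Creb3l1, a relative of Atf6 in collagen-making cells, fell by 1.52 ± 0.18 with iFTn-MR4 and by 0.97 ± 0.17 with iFTn-M4. Its value of -0.45 ± 0.17 with iFTn-R4 did not pass (edgeR adjusted p = 0.0687).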

How the data were processed

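Per the labels' protocols, mRNA was enriched with oligo (dT) beads and libraries were made as circles of single-stranded DNA. Reads were processed with HISAT2 2.1.0, Bowtie2 2.2.5 and RSEM 1.2.8 on the mouse build GRCm38.p6, per the submitters' processing notes. The authors deposited RSEM expected counts, of which 5.09% were not whole. The authors also deposited FPKM values, used here with the counts for effective lengths, and TPM values, used for levels between genes. PBS had 17051 genes in its table and the nanocages 17788, with 16547 holding values in all 8 libraries. Of the authors' tables every column of values belonged to a sample.

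Expected counts were rounded and fitted with edgeR 4.0.16 in R 4.3.3 (quasi-likelihood, TMM, a mean per group, filterByExpr keeping 13953 genes, Benjamini-Hochberg threshold 0.05, two-sided). SE is the log2 fold change over the square root of F. The common dispersion was 0.00718, a coefficient of variation of 8.47%. Promoter windows are RefSeq's. Alternatives were other scalings, no filter, DESeq2 1.42.0, limma 3.58.1 on log2(TPM + 1) and log2(TPM + 0.1), the compared groups alone, a replicate block, a length offset (a natural spline of log2 length, df 4, a correction known from earlier work on these data) and each library left out. Members, lists and tests were chosen with earlier results of these data known. Members shown in every library are the sensors, Xbp1, Hspa5, in every other role the 2 lowest p with iFTn-MR4 against PBS (1 where a role has 2 or fewer members), and those that rose in a comparison. Herpud1, Canx and Sel1l were added after their values were seen. Of each other list up to 3 genes with the lowest p, with Atf4 and Ddit3, could be named. Whether counting used strand is not given in the sources used here. The scripts were tested on simulated data.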

Additional observations from a re-analysis of the deposited data

How the results depend on the processing

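The numbers of members called were 29, 29, 19, 0, 21 and 12. They stand for iFTn-MR4, iFTn-M4 and iFTn-R4 against PBS, then iFTn-MR4 over iFTn-M4, iFTn-MR4 over iFTn-R4 and iFTn-R4 over iFTn-M4. Of these calls, 2 of the 19 and 2 of the 12 held in every alternative. In the tally a number that stayed at 0 counts as kept, and some alternatives left out a library of a group not compared. The number of members called kept within 1.5 times of its main value in 87 of 102 alternatives. With 1 library left out it ranged from 24 to 33, 18 to 30, 9 to 26, 0 to 3, 13 to 25 and 3 to 17. Leaving out a library also changed the number of calls over all tested genes. For iFTn-R4 against PBS the number of members called was 10 with the length offset, 10 with the 2 groups alone and 12 on both TPM scales. On log2(TPM + 0.1) it was 19 for iFTn-M4 against PBS. With the groups alone it was 3 for iFTn-MR4 against iFTn-M4 and 5 for iFTn-R4 against iFTn-M4. Values not past the threshold that turned sign with the length offset included Atf6 (-0.15 with iFTn-MR4, -0.19 with iFTn-M4), Dnajb9 (0.0894 with iFTn-M4) and Sel1l (-0.13 with iFTn-MR4). With iFTn-M4 Sel1l also turned, from 0.01 to -0.26, and passed (edgeR adjusted p = 0.0224). Called values that turned with the length offset were Ppib (0.0269 with iFTn-R4) and Ddit3 (0.0026 with iFTn-MR4). On both TPM scales the turns included Canx (0.0193 and 0.0194 with iFTn-MR4) and Dnajb9 (0.0437 and 0.0446 with iFTn-M4). Derl2 (0.0062 and 0.0064 with iFTn-M4) and Hsp90b1 (0.11 with iFTn-R4) turned too. With iFTn-R4 Derl2 went from -0.09 to 0.28 and 0.29 and passed (limma adjusted p = 0.019 and 0.018). Without the second iFTn-R4 library Herpud1 (-0.0557) and Ddit3 (-0.0793) turned with iFTn-R4, with 0.539 and 0.159 without the first. The cause of these changes was not tested. Over all genes, iFTn-MR4 against iFTn-M4 gave 51 calls, against 745 with the groups alone, 352 in DESeq2 and 271 with the replicate block, and iFTn-R4 against PBS 4096, against 1943 with the length offset.

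Replicate numbers are shared by the groups, but same-numbered libraries did not deviate together throughout (correlations of deviations 0.0012 to 0.189), so they were not taken as pairs. With the replicate block the members called were 30, 29, 23, 0, 23 and 12 in the same order. Depth limited Derl3, with 3 to 30 counts a library.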
